A study of Mus musculus with 56 samples.

Results

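Fetus- and graft-specific CD8 T cells (TFGS) of the S+P C7 subset, sorted as PD1+CD73-, were compared with TFGS of Sensitized mice by RNA-Seq. All mice were female C57BL/6 (B6), bought as young adults, and TFGS were the CD8 T cells of spleen and lymph nodes that bound tetramers of an ovalbumin peptide on H-2Kb. Sensitized mice had rejected skin of 2W-OVA.BALB/c mice, which express the model antigen 2W-OVA in their tissues, and were not mated. S+P mice had been grafted in the same way, were then mated with 2W-OVA.BALB/c males, and gave cells within days of delivery. S+P C7 samples were taken by column label, with the technical libraries of a replicate summed, which gave 5 S+P C7 and 4 Sensitized samples (9 of 30 in the series, and 18 of its 56 libraries). The labels give no PD1 or CD73 gate for Sensitized TFGS, and the effects of the sort, of pregnancy and of time since the graft cannot be told apart. Cells were sorted in separate experiments, and which mouse belonged to which is not given in the sources used here.

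PD-1, the product of *Pdcd1*, is an inhibitory receptor that T cells put on their surface after antigen contact and keep while antigen persists. CD8 T cells that meet antigen for a long time can become exhausted. They then carry several inhibitory receptors at once, depend on the transcription factor TOX and lose the IL-7 receptor. Memory CD8 T cells that have cleared their antigen instead keep the IL-7 receptor and BCL2, and only part of them keep the lymph node homing receptor CCR7. CD73, the product of *Nt5e*, is a surface enzyme that makes adenosine and is also used as a mark of anergic T cells.

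The 10 S+P C7 libraries had 11225602 to 25373794 counts and the 8 Sensitized libraries 6636532 to 27760062. Per sample, total counts, genes detected and the shares of counts from the most abundant rRNA gene and from mitochondrial genes gave no exact permutation p under 0.05 between the groups (two-sided p = 0.905, 0.746, 0.524 and 0.730, where 0.0159 is the smallest p possible). The number of genes with at least 1 count ran from 15045 to 17199 in Sensitized samples. It was 14523, 7879, 26805, 16452 and 21247 in S+P C7 replicates 1, 3, 4, 5 and 6, so replicates 4 and 6 lay above all Sensitized samples. Replicate 3 was a single library, while technical libraries were summed in the other S+P C7 samples. A library of S+P C7 replicate 1 and the library of replicate 2 were nearly identical (Pearson's r of log2(CPM + 1) 0.9986, while other pairs of technical libraries reached at most 0.9527; genes are not independent replicates in such an r), so they were averaged and counted as replicate 1.

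The gate genes were read first, as a description of the sort. *Pdcd1* had 166, 235, 466 and 578 CPM (counts scaled to a common library size) in S+P C7 replicates 1, 4, 5 and 6, and 41.9 to 59.3 CPM in the 4 Sensitized samples. In the library labelled S+P C7 replicate 3 it had 0.0467 CPM, under the floor of 3 counts, which goes against the PD1+ label. *Nt5e* had 53.9, 0, 23.2, 43.3 and 13.4 CPM in S+P C7 replicates 1, 3, 4, 5 and 6 and 66.4, 236, 104 and 81.7 CPM in Sensitized replicates 1 to 4. Every S+P C7 value of *Nt5e* was therefore below every Sensitized value, as the CD73- gate would select.

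CD8 T cell genes were high in all 9 samples. *Cd8a*, which encodes a chain of the CD8 coreceptor, ran from 969 to 1342 CPM in S+P C7 and from 803 to 966 CPM in Sensitized samples. The summed level of the 3 alpha beta T cell receptor constant genes was 2814 to 5732 CPM in S+P C7 and 2459 to 4651 CPM in Sensitized samples. *Cd4* was at 0 in 8 of the 9 samples and at 1.63 CPM in S+P C7 replicate 4.

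The library labelled S+P C7 replicate 3 also stood apart by genes of other cells. Its 10 B and plasma cell markers summed to 10129 CPM, against 106 to 270.3 CPM in the other S+P C7 and 221 to 649 CPM in the Sensitized samples. Most of this was *Ighm*, the immunoglobulin M constant gene, at 8234 CPM, while *Ms4a1* and *Cd79a* were at 0 in the same library. Its 13 myeloid markers summed to 6533 CPM, against 169 to 219 and 113 to 435 CPM, with *Cst3*, which encodes cystatin C, at 6167 CPM. Its 8 erythroid and platelet markers summed to 20082 CPM, against 0.685 to 209.9 CPM in the other S+P C7 and 0.575 to 6.30 CPM in the Sensitized samples, with the haemoglobin gene *Hbb-bs* at 6454 CPM. The part of these transcripts in the results was not tested, and the calls against Sensitized TFGS and the list counts at the unadjusted p are given below with and without this sample. Less of a transcript can mean fewer cells of a kind or less RNA per cell, and bulk libraries cannot separate these.

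**Figure D1:**
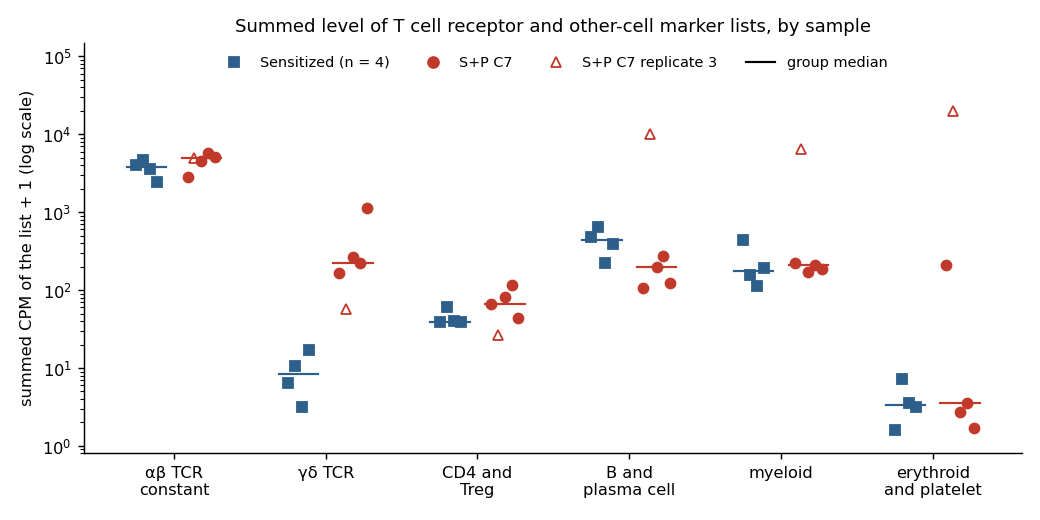
Summed CPM + 1 (log axis) of 6 marker lists in each sample, with bars at group medians. The open triangle, S+P C7 replicate 3, lies above all other samples in the B and plasma cell, myeloid and erythroid lists, at 10129, 6533 and 20082 CPM, and among them in the alpha beta T cell receptor list.

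Of 19657 genes tested with edgeR, 6 (0.0305%) passed both thresholds, which were 0.1 for the adjusted p and 0.9 for the size of the log2 fold change. *Il7r*, *Emb* and *Satb1* fell and *Tox*, *Trgc2* and *Gm4956* rose in S+P C7 against Sensitized TFGS. Without S+P C7 replicate 3, 5 of 19636 genes (0.0255%) passed, and *Satb1* was the one lost. Without any 1 of the 4 Sensitized samples only *Il7r* passed, and without S+P C7 replicate 4, 5 or 6 only *Il7r*, *Trgc2* and *Tox* did. In a fit of these groups alone 1 gene, *Trgc2*, passed. In the fit without the 3 samples of the series that had under 9000 genes detected (S+P C7 replicate 3 and S+P C4 replicates 2 and 3), 69 of 19553 genes (0.353%) passed, 38 higher and 31 lower, including all 6. Among the other genes named below, *Tigit*, *Lag3*, *Ifi27l2a*, *Tnfsf4*, *Tbc1d4* and *Ighg1* were higher past both thresholds in that fit. Lower past both were *Bcl2*, *Ccr7*, *Lcn4*, *Txnip*, *Slc6a19*, *Txk* and *Ighm*. The gate gene *Pdcd1* was also among the 38 higher, but the PD1+ sort selects for it, so its call is no test.

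*Il7r* (chromosome 15, 9505874 to 9530262, minus strand, GRCm39) encodes the IL-7 receptor alpha chain, through which memory T cells receive survival signals. It had 98.8, 20.4, 111, 114 and 132 CPM in S+P C7 replicates 1, 3, 4, 5 and 6 and 752, 1207, 1485 and 1009 CPM in Sensitized replicates 1 to 4. The lowest Sensitized sample was thus far above the highest S+P C7 sample. The mean was 95.2 ± 43.5 CPM (SD, n = 5) against 1113 ± 310 CPM (SD, n = 4), an 11.7-fold difference. The fitted log2 fold change was -3.55 (SE 0.50, edgeR adjusted p = 0.00107), and -3.29 without replicate 3 (edgeR adjusted p = 0.00169).

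*Emb* (chromosome 13, 117345072 to 117414817, plus strand) encodes embigin, a surface glycoprotein that partners monocarboxylate transporters. It had 91.2, 233, 154, 166 and 86.5 CPM in S+P C7 replicates 1, 3, 4, 5 and 6 and 637, 850, 726 and 479 CPM in Sensitized replicates 1 to 4, again without overlap. The log2 fold change was -2.20 (SE 0.43, edgeR adjusted p = 0.0692), and -2.43 without replicate 3 (edgeR adjusted p = 0.0225). Without S+P C7 replicate 1 *Emb* did not pass.

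*Satb1* (chromosome 17, 52043114 to 52140622, minus strand) encodes a chromatin organizer that shapes gene programs in T cells. It had 64.2, 15.9, 20.8, 8.15 and 15.8 CPM in S+P C7 replicates 1, 3, 4, 5 and 6 and 165, 287, 103 and 149 CPM in Sensitized replicates 1 to 4. Replicate 1 was the highest S+P C7 sample and still lay under every Sensitized sample. The log2 fold change was -2.82 (SE 0.56, edgeR adjusted p = 0.0692), and -2.70 without replicate 3 (edgeR adjusted p = 0.18). Exons of *Gm36931* overlap those of *Satb1* on the same strand, so reads of this pair may have gone uncounted or been split. The same holds for *Gm71569* and *Gm4956* below.

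*Tox* (chromosome 4, 6686353 to 6991644, minus strand) encodes the nuclear factor on which exhausted CD8 T cells depend. Its values were 150, 167, 389, 471 and 585 CPM in S+P C7 replicates 1, 3, 4, 5 and 6 and 38.2, 52.0, 37.3 and 46.4 CPM in Sensitized replicates 1 to 4. The groups did not overlap, and S+P C7 samples were spread more widely than Sensitized samples. The mean was 8.11-fold higher in S+P C7, with a log2 fold change of 3.02 (SE 0.53, edgeR adjusted p = 0.0191) and 3.20 without replicate 3 (edgeR adjusted p = 0.0104). *Gm4956* (chromosome 1, 21355832 to 21368351, minus strand), a gene of no assigned role, had 15.8, 0, 13.5, 60.8 and 39.6 CPM in S+P C7 replicates 1, 3, 4, 5 and 6 and no more than 0.026 CPM in any Sensitized sample. Its mean was at least 173-fold higher than 3 counts in the Sensitized sample where they weigh most (edgeR adjusted p = 0.0692, and 0.0104 without replicate 3). Without replicate 5 this bound was 115-fold. Exons of *Gm11802* overlap those of *Tox*, exons of *Gm6934* those of *Satb1*, and exons of *Gm17509* and *Gm61516* those of *Emb*. These overlaps are on opposite strands, and the genes could share reads if counting ignored strand, which is not given in the sources used here.

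*Trgc2* (chromosome 13, 19488819 to 19491721, minus strand) is the constant gene of the second T cell receptor gamma cluster. It had 113, 56.5, 151, 107 and 748 CPM in S+P C7 replicates 1, 3, 4, 5 and 6, and 0, 0, 0.0304 and 0.0519 CPM in Sensitized replicates 1 to 4, under the floor of 3 counts in each. Every S+P C7 sample held it, and replicate 6 held most. The S+P C7 mean was at least 1567-fold higher than 3 counts in the Sensitized sample where they weigh most (edgeR adjusted p = 0.0179, and 0.0104 without replicate 3). Without replicate 6 the mean was 107 CPM and the bound 712-fold. Across the other subsets *Trgc2* ranged from 42.1 to 199 CPM in S+P C5, from 0.298 to 1374 CPM in S+P C4, from 0.0292 to 35.5 CPM in N+P C5, from 0 to 4.07 CPM in N+P C1 and from 3.95 to 6.35 CPM in Naive TFGS, so some N+P samples were as low as the Sensitized ones.

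The gamma constant genes are near copies, and the authors removed reads that mapped to several places, so the sequences are shown to let the copies be compared. Over aligned bases of the longest annotated transcripts, *Trgc2* was 96.1% identical to *Trgc1*, 97.3% to *Trgc3* and 69.1% to *Trgc4*. The first 120 bases of the first exon follow, 5′ to 3′ (GRCm39, GENCODE M39), from chr13:19491602-19491721 on the minus strand for *Trgc2*, chr13:19398273-19398392 on the plus strand for *Trgc1* and chr13:19445055-19445174 on the plus strand for *Trgc3*. Capitals mark the bases of *Trgc2* at which either copy differs and the bases of each copy that differ from *Trgc2*, 2 in each.
Trgc2: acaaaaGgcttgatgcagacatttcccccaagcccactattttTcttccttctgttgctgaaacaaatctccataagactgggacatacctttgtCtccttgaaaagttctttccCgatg
Trgc1: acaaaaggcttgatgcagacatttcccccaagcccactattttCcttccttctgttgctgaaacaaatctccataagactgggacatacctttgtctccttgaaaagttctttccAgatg
Trgc3: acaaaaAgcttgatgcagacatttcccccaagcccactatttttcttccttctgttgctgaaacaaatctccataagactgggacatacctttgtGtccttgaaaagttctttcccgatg

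Reads from the stretches shared by these copies would not have been counted, so the values of *Trgc2*, *Trgc1* and *Trgc3* rest on the bases that differ and are uncertain as levels. *Trgc1* stayed at or under 0.234 CPM in all 9 samples. *Trgc3* had 34.4 CPM in S+P C7 replicate 4 and 0 in the other 8 samples. *Trgc4*, the most divergent copy, had 16.7, 0.0934, 43.4, 86.0 and 261 CPM in S+P C7 replicates 1, 3, 4, 5 and 6 and 0.305, 0, 0 and 12 CPM in Sensitized replicates 1 to 4. The T cell receptor delta constant gene *Trdc*, which gamma delta T cells express, was at 0 in 4 of the 5 S+P C7 samples and at 0.414 CPM in the other one, below the 1.12 to 5.08 CPM of the Sensitized samples. Of 14 gamma delta genes counted, 9 were tested, 5 were higher and 2 lower at an unadjusted p under 0.05, and *Trgc2* was the 1 called. Without replicate 3, 5 were higher and 0 lower.

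**Figure D2:**
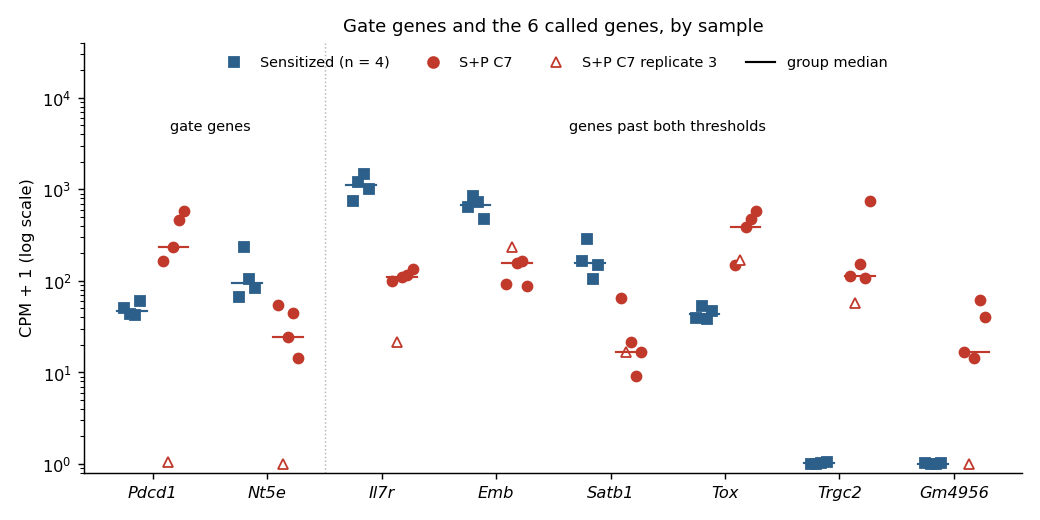
CPM + 1 (log axis) of the gate genes *Pdcd1* and *Nt5e* and of the 6 called genes in each sample, with bars at group medians. S+P C7 samples lie below all 4 Sensitized samples for *Il7r*, *Emb* and *Satb1* and above them for *Tox* and *Trgc2*, and replicate 3 (open triangle) is at or near 0 for *Pdcd1*, *Nt5e* and *Gm4956*.

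Beyond the called genes, lists of related genes are described by how many members reached an unadjusted p under 0.05 in edgeR and by whether the samples of the groups overlapped. Among all 19657 genes 7.36% were higher and 2.84% lower in S+P C7 at that p, and the samples did not overlap for 0.773% (higher) and 1.38% (lower). Without replicate 3 these shares were 7.18% and 2.54% at that p and 2.66% and 1.83% without overlap. The share at that p in either direction was 10.2%, and it was 3.03% (399 of 13181 genes) in a fit of these groups alone and 2.68% among genes with a mean of at least 10 CPM. The median log2 fold change over all genes was 0. For list members other than the 6 called genes the edgeR adjusted p was at least 0.228 over all samples. The lists were chosen with earlier results of these data known. The study had reported *Tox*, *Nfatc1*, *Nfat5*, *Lag3*, *Tigit*, *Tnfsf4*, *Ctla4* and *Pdcd1* as raised and *Satb1* as lowered in S+P C5 against Sensitized TFGS. The list counts below are therefore a description and no independent test.

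Of 16 inhibitory receptors tested, 13 had a log2 fold change above 0. At the unadjusted p 4 were higher and 0 lower, 3 were higher in every S+P C7 sample, and the median log2 fold change was 1.48. Without replicate 3 these counts were 5, 0 and 5 and the median 1.72. *Tigit*, which encodes a receptor for CD155, had 129, 20.6, 468, 654 and 527 CPM in S+P C7 replicates 1, 3, 4, 5 and 6 and 16.4, 4.85, 17.5 and 12.6 CPM in Sensitized replicates 1 to 4. All S+P C7 samples were above all Sensitized samples, with replicate 3 closest to them, and the log2 fold change was 4.81 (SE 1.10, edgeR adjusted p = 0.262). Without the samples under 9000 genes detected *Tigit* was called (edgeR adjusted p = 0.00107). *Havcr2*, which encodes TIM-3, had 130, 30.1, 82.4, 69.1 and 70.9 CPM in S+P C7 replicates 1, 3, 4, 5 and 6. In Sensitized replicates 1 to 4 it had 0, 0, 6.07 and 0.0519 CPM (log2 fold change 5.64, SE 2.17, edgeR adjusted p = 0.473).

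*Lag3*, which encodes a receptor for MHC class II, had 147, 0, 285, 529 and 193 CPM in S+P C7 replicates 1, 3, 4, 5 and 6 and 14.5, 0, 20.9 and 26.6 CPM in Sensitized replicates 1 to 4. Overlap came from replicate 3 alone, where *Lag3* was at 0. Its log2 fold change was 3.89 (SE 1.44, edgeR adjusted p = 0.473). *Cd200*, a surface ligand that restrains myeloid cells, had 0.794 CPM in replicate 3, 12.5 to 280 CPM in the other S+P C7 samples and 0.273 to 7.84 CPM in Sensitized samples. *Ctla4*, which encodes a competitor of CD28, overlapped between the groups, at 0 to 295 CPM in S+P C7 and 27.3 to 98.1 CPM in Sensitized samples. Summed over the 16 receptors the level was 1256 to 2740 CPM in S+P C7 without replicate 3, 468 CPM in replicate 3 and 562 to 803 CPM in Sensitized samples.

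Among 23 transcription factors associated with exhaustion, 6 were higher and 0 lower at the unadjusted p, and the median log2 fold change was 0.98. Without replicate 3 the count was 7 and the median 1.09. *Maf*, a basic leucine zipper factor of T helper and exhausted cells, had 21.2, 30.9, 47.2, 62.4 and 66.4 CPM in S+P C7 replicates 1, 3, 4, 5 and 6. *Maf* had 0.539, 3.4, 3.07 and 4.15 CPM in Sensitized replicates 1 to 4, so the groups did not overlap (log2 fold change 4.03, SE 1.46, edgeR adjusted p = 0.473). *Tox2*, a relative of *Tox*, had 9.05, 47.0, 50.9 and 55.5 CPM in S+P C7 replicates 1, 4, 5 and 6, 0 in replicate 3 and at most 2.06 CPM in Sensitized samples. Of the NFAT factors, which calcineurin activates after T cell receptor signalling in the case of *Nfatc1*, *Nfatc1* ran from 143 to 334 CPM in S+P C7 and from 104 to 152 CPM in Sensitized samples. *Nfat5*, the member that responds to tonicity, had 39.1 to 112 CPM against 24.6 to 39 CPM. *Eomes*, a T-box factor of memory and exhausted cells, overlapped, at 60.4 to 187 CPM and 17.9 to 101 CPM.

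Memory and quiescence genes lay mostly on the other side. Of 24 members tested, 0 were higher and 10 lower at the unadjusted p, 3 of them the called genes *Il7r*, *Emb* and *Satb1*, and 4 were lower in every S+P C7 sample. The median log2 fold change was -0.79. Without replicate 3, 1 was higher and 9 were lower, 8 were lower in every sample, and the median was -0.73. Without the samples under 9000 genes detected 7 were called lower. *Bcl2*, which encodes a guard against apoptosis, had 67.3, 26.7, 106, 117 and 145 CPM in S+P C7 replicates 1, 3, 4, 5 and 6 and 220, 366, 242 and 294 CPM in Sensitized replicates 1 to 4 (log2 fold change -1.61, SE 0.44, edgeR adjusted p = 0.473). The groups did not overlap, and replicate 3 was the lowest.

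*Ccr7*, the chemokine receptor for entry into lymph nodes, had 21.8, 30.3, 31 and 40.5 CPM in S+P C7 replicates 1, 4, 5 and 6, 149 CPM in replicate 3 and 121 to 531 CPM in Sensitized samples. Every S+P C7 sample but replicate 3 was below all Sensitized samples. *Tcf7*, which encodes the memory and stem-like factor TCF-1, had 91.7 to 395 CPM in S+P C7 and 299 to 386 CPM in Sensitized samples, with replicate 5 above all Sensitized samples and the other S+P C7 samples below them. Also among the 10 were *S1pr1*, *Btg2* and *Tsc22d3*, with log2 fold changes of -0.80, -0.79 and -1.56. *Slamf6*, a receptor that marks stem-like exhausted cells, overlapped, at 26.3 to 851 CPM in S+P C7 and 226 to 304 CPM in Sensitized samples. Summed over the 24 genes the level was 4636 to 6601 CPM in S+P C7 and 7633 to 11540.1 CPM in Sensitized samples, without overlap.

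**Figure D3:**
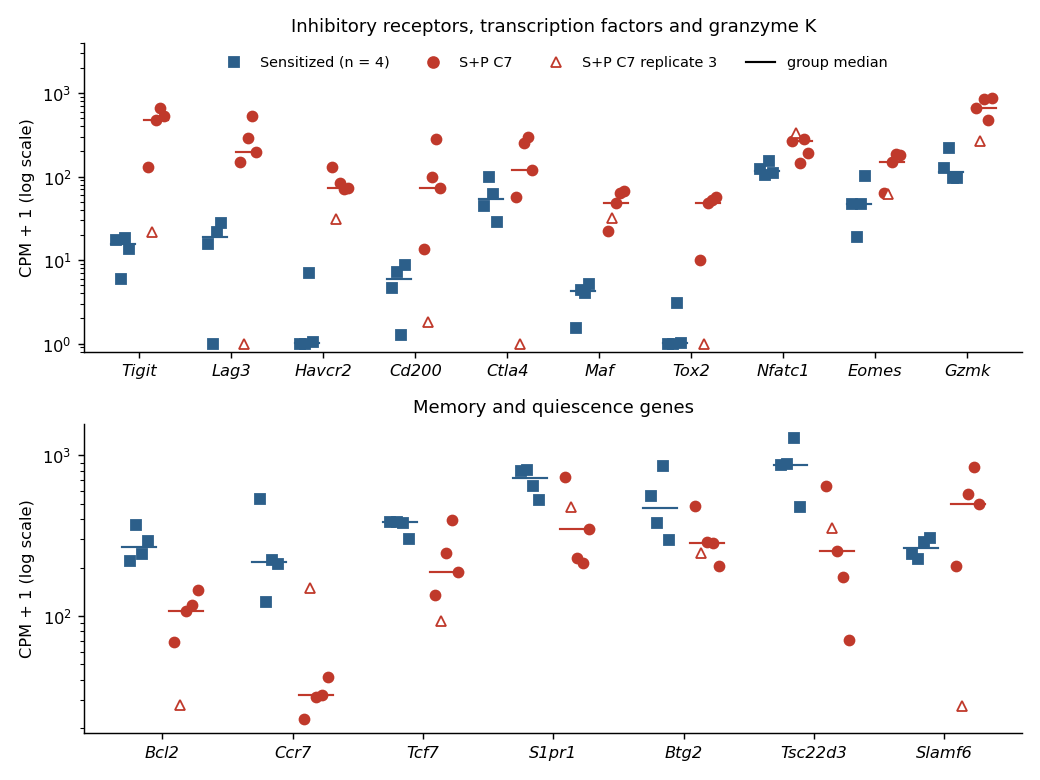
CPM + 1 (log axis) of inhibitory receptors, transcription factors and *Gzmk* (upper panel) and of memory and quiescence genes (lower panel) in each sample, with bars at group medians. In the upper panel S+P C7 samples lie higher for *Tigit*, *Havcr2*, *Maf* and *Gzmk*, and in the lower panel lower for *Bcl2*, while replicate 3 (open triangle) lies with the Sensitized samples for *Lag3*, *Cd200*, *Tox2* and *Ccr7*.

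Cytotoxic genes separated the groups more often than they passed a test. Of 15 members, 1 was higher and 0 lower at the unadjusted p, with a median log2 fold change of 0.37, while 5 were higher and 2 lower in every S+P C7 sample. *Gzmk*, which encodes granzyme K, had 667, 267, 858, 472 and 862 CPM in S+P C7 replicates 1, 3, 4, 5 and 6 and 125, 217, 94.8 and 96.2 CPM in Sensitized replicates 1 to 4 (log2 fold change 2.23, SE 0.95, edgeR adjusted p = 0.473). *Gzma* and *Gzmb*, named after their values were seen, encode granzymes A and B. *Gzma* had 478 to 6173 CPM in S+P C7 and 27.9 to 237 CPM in Sensitized samples, and *Gzmb* 211 to 1608 CPM and 52.2 to 140 CPM. Both were highest in S+P C7 replicate 1, and their log2 fold changes of 3.99 and 3.05 had SE of 2.32 and 1.64. Without replicate 3 the counts at the unadjusted p were the same and the median was 0.32.

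Among 18 cytokines and chemokines tested, 4 were higher and 0 lower at the unadjusted p (median log2 fold change 1.29), and without replicate 3, 4 were higher and 1 lower (median 1.42). All 4 were at low levels and under the floor in Sensitized samples. *Il10*, an anti-inflammatory cytokine, had 1.97, 0, 29.9, 28.9 and 18.7 CPM in S+P C7 replicates 1, 3, 4, 5 and 6, a mean at least 106-fold higher than the floor. *Spp1*, which encodes osteopontin, had 0 to 27.5 CPM, *Csf1*, a macrophage growth factor, 0 to 41.3 CPM and *Il21*, a helper cytokine, 0 to 15.1 CPM, with replicate 3 at 0 for each. *Ifng* overlapped, at 33.4 to 151 CPM in S+P C7 and 34.0 to 158 CPM in Sensitized samples. *Ccl5*, a chemokine that memory CD8 T cells store as message, was among the most abundant, at 4622 to 18001 CPM and 5266 to 10752 CPM.

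*Tnfsf4*, which encodes OX40 ligand, had 1.49, 0, 35.7, 116 and 35.6 CPM in S+P C7 replicates 1, 3, 4, 5 and 6 and was under the floor in all Sensitized samples, a mean at least 252-fold higher (edgeR adjusted p = 0.409), or 121-fold without replicate 5. In the fit without samples under 9000 genes detected the edgeR adjusted p was 0.00769. In the list of TNF superfamily and CD28 family genes it was the 1 of 17 higher at the unadjusted p, and *Tnfrsf25*, a death receptor family member, the 1 lower, with a median log2 fold change of -0.04. Without replicate 3, 1 was higher and 0 lower. Cytokine receptors had 0 higher and 1 lower of 24, with a median of -0.21. The 1 lower was *Ifngr1*, which encodes a chain of the interferon gamma receptor, at 77.5 to 473 CPM in S+P C7 and 435 to 854 CPM in Sensitized samples. Without replicate 3 there were 0 higher and 3 lower.

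All 37 cell cycle genes had a fitted log2 fold change above 0, with a median of 1.90, and 5 were higher at the unadjusted p. The counts were 5 of 37 and the median 1.84 without replicate 3. *Hmgb2*, a chromatin protein of dividing cells, had 403, 1551, 935, 567 and 612 CPM in S+P C7 replicates 1, 3, 4, 5 and 6 and 220, 328, 393 and 177 CPM in Sensitized replicates 1 to 4, without overlap (log2 fold change 1.54, SE 0.39, edgeR adjusted p = 0.473). *Mki67*, which encodes a proliferation antigen, had 11.8, 766, 223, 149 and 252 CPM in S+P C7 replicates 1, 3, 4, 5 and 6 and 6.2, 27.7, 64.7 and 0.909 CPM in Sensitized replicates 1 to 4. Replicate 1 lay within the Sensitized range and replicate 3 was the highest. *Ccnb2*, a mitotic cyclin, had 11.6 to 263 CPM against 0 to 3.82 CPM. Summed over the 37 genes, replicate 1 had 1495 CPM, the other S+P C7 samples 2484 to 4679 CPM and Sensitized samples 725 to 1768 CPM.

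Of 38 interferon-stimulated genes tested, 1 was higher and 4 were lower at the unadjusted p, 31 had a log2 fold change below 0, and the median was -0.43. In every S+P C7 sample 1 was higher and 5 were lower. Without replicate 3 the counts at the unadjusted p were also 1 and 4, and the median was -0.22. *Ifi27l2a*, a small interferon-inducible protein gene, was the 1 higher, at 394, 758, 526, 802 and 466 CPM in S+P C7 replicates 1, 3, 4, 5 and 6 and 155, 195, 208 and 170 CPM in Sensitized replicates 1 to 4 (log2 fold change 1.69, SE 0.37, edgeR adjusted p = 0.228, and 0.00337 without the samples under 9000 genes detected). The groups did not overlap. *Ifi208*, a member of the interferon-inducible p200 family, lay on the other side at 0.747 to 55.1 CPM and 118 to 187 CPM. *Oas2*, an antiviral oligoadenylate synthetase, was at 0 to 1.42 CPM in S+P C7 and 12.7 to 26.5 CPM in Sensitized samples.

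T cell receptor signalling genes had 3 higher and 2 lower of 27, with a median log2 fold change of 0.06, and 4 higher and 2 lower without replicate 3. The kinase *Txk*, which acts below the receptor, was lower in every S+P C7 sample, at 56.1 to 241 CPM against 274 to 492 CPM. *Fyn*, a kinase of the Src family, was higher in every S+P C7 sample, at 305 to 410 CPM against 147 to 298 CPM. *Rnf128*, the anergy-associated ubiquitin ligase GRAIL, had 2.62 to 10.8 CPM in S+P C7 replicates 1, 4, 5 and 6, 0 in replicate 3 and at most 0.1 CPM in Sensitized samples. NK receptors had 2 higher and 2 lower of 17, homing and adhesion genes 3 and 2 of 25, S100 and annexin genes 1 and 0 of 17, BCL2 family genes 0 and 1 of 14, and glycolysis genes 1 and 0 of 16. Their median log2 fold changes were 0.76, 0.20, 0.31, 0.05 and -0.16, and 0.10, 0.28, 0.29, 0.23 and 0.11 without replicate 3. Without replicate 3 these counts were 1 and 1, 3 and 2, 0 and 0, 0 and 1, and 1 and 0. Among marker lists of other cells, the counts were 2 higher and 1 lower of 6 for B and plasma cells, 3 and 0 of 12 for myeloid cells, 1 and 0 of 8 for NK cells, 5 and 0 of 7 for erythroid cells and platelets and 0 and 0 of 7 for CD4 and regulatory T cells. Without replicate 3 they were 1 and 2, 2 and 0, 0 and 0, 1 and 0, and 0 and 0. *Trbc1* was the 1 of 3 alpha beta constant genes that was higher, with and without replicate 3, at 368 to 2547 CPM against 405 to 875 CPM.

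**Figure D4:**
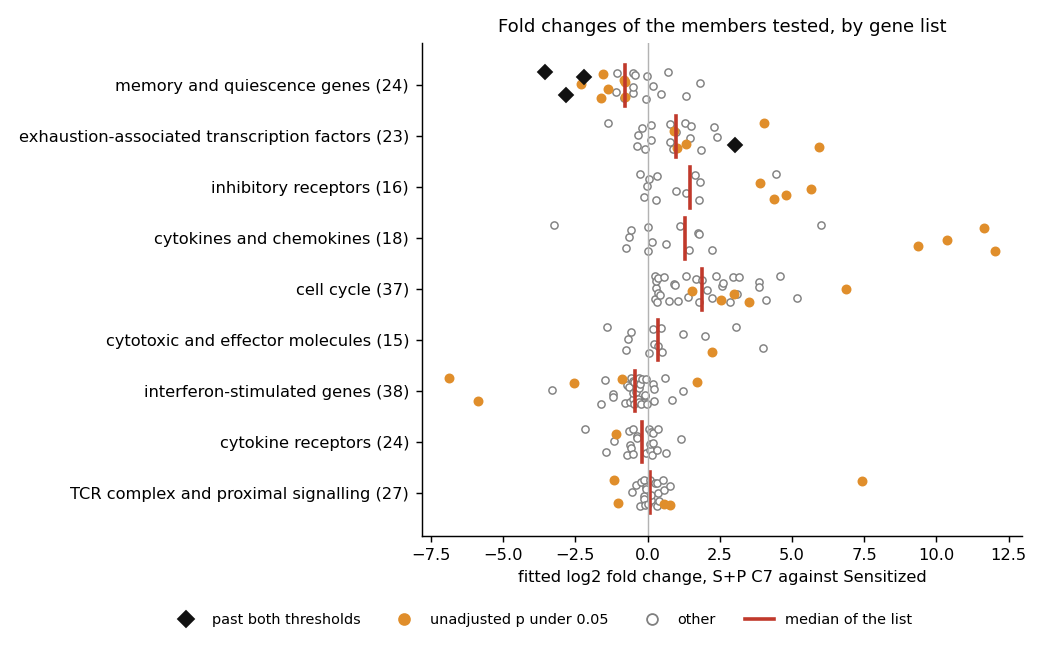
Fitted log2 fold change of S+P C7 against Sensitized TFGS for each tested member of 9 gene lists, with the number tested in brackets and a bar at the median of each list. The 3 called genes on the left of 0 are *Il7r*, *Satb1* and *Emb* and the 1 called on the right is *Tox*, and all 37 cell cycle genes lie to the right of 0.

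The genes with the smallest p among those without overlap included further named genes, none of which passed. Higher in every S+P C7 sample were *Tbc1d4*, a regulator of glucose transporter traffic (58.1 to 252 CPM against 5.62 to 21.1 CPM), *Adam19*, a metalloprotease (151 to 285 CPM against 70.3 to 81.4 CPM), and *Pon3*, a paraoxonase (8.40 to 75.6 CPM against 0 in all Sensitized samples). *Sptb*, the erythroid beta-spectrin gene, had 99.1 CPM in replicate 3, at most 2.47 CPM in the other S+P C7 samples and 0 in all Sensitized samples. In S+P C7 replicates 1 and 5 it was under 3 counts, at 0.0464 and 0.0517 CPM, so its lack of overlap lies at the floor. *Ighg1*, an immunoglobulin constant gene, varied from 0.0934 to 529 CPM among S+P C7 samples and was not highest in replicate 3. Its lowest value, in replicate 3, was under 3 counts, against at most 0.0304 CPM in Sensitized samples, so its lack of overlap also lies at the floor. Lower in every S+P C7 sample were *Slc28a2b*, a nucleoside transporter gene (0 to 1.32 CPM against 13.4 to 80.6 CPM), *Lcn4*, a lipocalin (0 to 9.34 CPM against 88.2 to 158 CPM), *Txnip*, a glucose-responsive regulator (65.3 to 412 CPM against 421 to 1039.7 CPM), and *Cd53*, a tetraspanin (471 to 903 CPM against 969 to 1289 CPM). *Slc6a19* and *1700062C10Rik* were at 0 in all 5 S+P C7 samples and at 0.05 CPM in Sensitized replicate 2, the lowest of that group. That value was under 3 counts, so their lack of overlap lies at the floor too. The other Sensitized samples had 2.21 to 22.9 CPM of *Slc6a19* and 1.62 to 9.94 CPM of *1700062C10Rik*.

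S+P C7 was then set directly against the other S+P subsets, S+P C5 (PD1+CD73+, n = 6) and S+P C4 (PD1-, n = 6). Against S+P C5, 0 of 19657 genes (0%) passed both thresholds in edgeR, 2500 (12.7%) had an unadjusted p under 0.05, and 551 passed in DESeq2 and 105 in limma-voom. Against S+P C4, 1 gene (0.00509%), *Satb1*, passed, and 3124 (15.9%) had an unadjusted p under 0.05. *Satb1* ran from 79.8 to 751 CPM in S+P C4, with no sample below the highest of S+P C7, and from 11.8 to 41.3 CPM in S+P C5. Its log2 fold change was -3.61 against S+P C4 (SE 0.55, edgeR adjusted p = 0.00538) and -0.08 against S+P C5 (SE 0.49). Without S+P C7 replicate 3 the calls numbered 0 and 1. No gene passed against S+P C4 once the 3 samples under 9000 genes detected were left out, or in a fit of these groups alone.

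*Il7r* had its lowest levels in S+P C7, at 20.4 to 132 CPM, then 183 to 306 CPM in S+P C5, 122 to 1035 CPM in S+P C4 and 752 to 1485 CPM in Sensitized samples. No S+P C5 sample overlapped with S+P C7, but the log2 difference of -1.27 (SE 0.44) did not pass (edgeR adjusted p = 0.278). That of -2.22 against S+P C4 did not pass either (SE 0.45, edgeR adjusted p = 0.174). An earlier description of these libraries had picked *Il7r* among genes that differed from S+P C5. Its comparison with S+P C5 is therefore a description and no independent test. *Tox* had a mean of 352 ± 190 CPM in S+P C7 (SD, n = 5), 394 ± 106 CPM in S+P C5 and 135 ± 82.8 CPM in S+P C4 (SD, n = 6 each). The log2 difference was -0.16 (SE 0.43) against S+P C5 and 1.38 (SE 0.43) against S+P C4, and neither passed (edgeR adjusted p = 1 and 0.244). *Tigit* had 20.6 to 654 CPM in S+P C7, 168 to 907 CPM in S+P C5 and 0.199 to 185 CPM in S+P C4. For *Trgc2* the log2 difference was 1.19 (SE 1.14) against S+P C5 and -0.18 (SE 1.15) against S+P C4. *Gm4956* had 0 to 60.8 CPM in S+P C7, 23.9 to 102 CPM in S+P C5 and 0 to 13.3 CPM in S+P C4. Set against Sensitized TFGS, S+P C5 also passed both thresholds for *Il7r*, *Satb1*, *Tox*, *Trgc2* and *Gm4956*, but not for *Emb* (edgeR adjusted p = 0.277).

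A further set of genes came from an earlier description of these libraries, where they were picked for a difference from S+P C5, so their values are a description with no test. Against S+P C5, *Ifngr1* had a log2 difference of 1.76 (SE 0.46), *Ccl5* of 1.73 (SE 0.50), *Id2*, an inhibitor of E proteins in effector cells, of 0.98 (SE 0.29) and *Smad3*, a mediator of TGF-beta signals, of 1.78 (SE 0.76). *Tcf7*, *Slamf6* and *Icos*, a costimulatory receptor, had differences of -1.23 (SE 0.35), -1.55 (SE 0.47) and -1.15 (SE 0.55), and *Tnfsf8*, which encodes CD30 ligand, of -2.51 (SE 1.19). *Cxcl13*, a B cell chemokine, was at 0 in all S+P C7 and Sensitized samples. *Il13ra1*, *Tcf7l2* and *Sox4* stayed at or under 3.50, 28.9 and 0.0259 CPM in S+P C7. *Cd44*, an activation and memory marker, and *Izumo1r*, which encodes the folate receptor FR4, overlapped between S+P C7 and Sensitized samples, at 75.9 to 272 and 113 to 251 CPM and at 7.06 to 131 and 0 to 15.7 CPM.

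**Figure D5:**
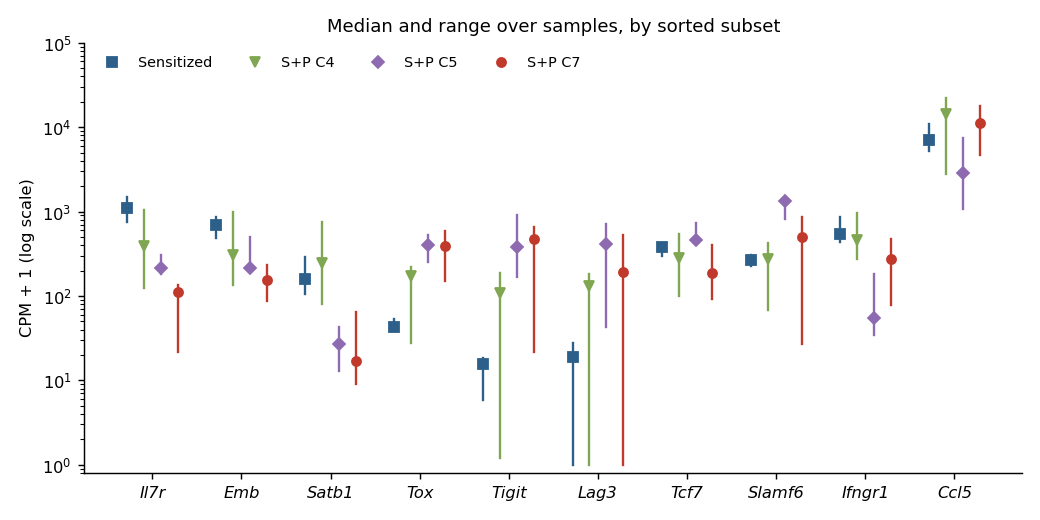
Median (marker) and range from lowest to highest sample (line) of CPM + 1 (log axis) for 10 genes in Sensitized (n = 4), S+P C4 (n = 6), S+P C5 (n = 6) and S+P C7 (n = 5) TFGS. S+P C7 and S+P C5 lie together and under S+P C4 for *Satb1*, and *Il7r* is lowest in S+P C7, at 20.4 to 132 CPM.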

How the data were processed

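CD8 T cells were sorted by tetramer and, in S+P mice, by PD1 and CD73, and SmartSeq2 libraries of 200 cells were sequenced in 1 run. The authors trimmed reads with cutadapt 3.4, aligned them to GRCm39 with STAR 2.6.1b, kept uniquely mapped reads, and deposited raw counts per gene from featureCounts 2.0.1. The strand setting and annotation release are not given in the sources used here. No column was left unmapped. Groups followed the labels.

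Technical libraries of a replicate were summed, nearly identical columns of S+P C7 were averaged and counted once, and a column identical in Naive and S+P C4 was dropped from both. Genes were filtered with filterByExpr (minimum count 10), scaled by TMM, and tested with edgeR 4.0.16 (quasi-likelihood, robust, Benjamini-Hochberg adjustment) over all 7 groups and 30 samples, with thresholds of 0.1 on the adjusted p and 0.9 on the size of the log2 fold change. The pipeline was also tested on counts simulated with the spread of these data, with 200 genes changed in S+P C7. It called 29 of the 200 and 1 unchanged gene. Of the changed genes it called 12 of 111 at a log2 change of size 2 and 17 of 89 at size 3. Most changes of this size were thus missed, and a gene not called is not shown to be unchanged. DESeq2 1.42.0, limma 3.58.1 (voom), other filters and scalings and samples left out were alternatives. CPM are counts scaled to a common library size with TMM factors. A group whose samples all had 3 counts or fewer was at the floor, and a fold against it is a lower bound. Floors cover counting error only, since PCR reads without molecular identifiers are not independent molecules. P-values rest on a spread estimated over all 30 samples of the 7 groups, and not on the compared samples alone. S+P subsets entered that fit as independent samples, although they may share mice. Gene coordinates are from GENCODE M39.

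Members and gene lists were chosen with earlier results of these data known. Named were the genes past both thresholds, the 10 smallest p per direction among genes without overlap at an unadjusted p under 0.05, up to 4 such members per list, the gate genes, and genes tied to these subsets by the study or by an earlier description of these data. *Cd8a*, *Cd4*, *Cst3*, *Hbb-bs*, *Ighm*, *Ms4a1*, *Cd79a*, *Trgc1*, *Trgc4*, *Trdc*, *Ccr7*, *S1pr1*, *Btg2*, *Tsc22d3*, *Gzma*, *Gzmb* and *Ifng* were added after their values were seen where that rule does not give them. Some genes that this rule gives are not reported here.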

Additional observations from a re-analysis of the deposited data

Results flagged for a closer look

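Of 34 sets of samples examined for a value far from the others, 7 held one, where chance gives about 1 in 20. The sets share samples and *Trgc2* is part of the gamma delta sum, so they are not independent. No excess over chance can be read from this count. *Trgc2* in S+P C7 replicate 6 was far above the rest at 748 CPM, and the summed level of gamma delta T cell receptor genes in the same sample was 1136 CPM. *Satb1* in S+P C7 replicate 1 was far above the rest of that group at 64.2 CPM. S+P C7 replicate 3 held 3 of the 7, with summed levels of 10129 CPM for B and plasma cell markers, 6533 CPM for myeloid markers and 20082 CPM for erythroid and platelet markers. Sensitized replicate 2 had 60.3 CPM for the summed CD4 and regulatory T cell markers. *Satb1* differed between S+P C7 and S+P C4, with a log2 fold change of -3.61.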

How the results depend on the processing

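Against 6 genes in S+P C7 versus Sensitized TFGS, DESeq2 called 745, limma-voom 357 and a fit with each technical library as a sample 759. Technical libraries of a replicate are not independent samples, so the p-values of that last fit do not measure the spread between replicates. An adjusted p under 0.05 left 3, no filter on low counts 3 and only the groups compared 1. Without samples under 9000 genes detected 69 were called and without the S+P C4 samples 30. Leaving out 1 sample at a time gave 1 to 7. With a replicate block 5 were called, 4 of them among the 6 (*Il7r*, *Trgc2*, *Tox* and *Emb*), but same-numbered S+P C7 and Sensitized samples share only a number (mean r 0.019, lowest -0.037). For S+P C7 against S+P C5, with 0 calls, DESeq2 gave 551 and limma-voom 105. For S+P C7 against S+P C4, with 1 call, they gave 902 and 74, and the fits of only the groups compared and without samples under 9000 genes detected gave 0 each. With a replicate block these calls stayed at 0 and 1, while genes at an unadjusted p under 0.05 went from 2500 to 1074 (5.46%) and from 3124 to 1213 (6.17%). That block also tied same-numbered Naive, N+P and Sensitized samples to the S+P samples, so it was not a paired test of the S+P subsets. Whether an S+P number marks 1 mouse across subsets is not given in the sources used here. Same-numbered samples correlated with a mean r of 0.116 in S+P C5 (lowest 0.081) and 0.174 in S+P C4 (lowest 0.043), and 5 and 3 of 5 S+P C7 samples correlated best with their own number. *Ighm* changed sign without samples under 9000 genes detected, to a log2 fold change of -1.55. The cause of these shifts was not tested. Of 95 named genes, 81 kept 1 sign in all 28 alternatives. *Tox*, *Trgc2*, *Emb*, *Satb1* and *Gm4956* were not called once any 1 of the 4 Sensitized samples was left out. Alternatives on replicate 4's library of most genes, with and without replicate 3, were added after seeing the data and gave 7 and 5.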
